A study of Homo sapiens with 4 samples.

Results

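The 10 genes described here make, remove and sense retinoic acid, the vitamin A derivative that acts on nuclear receptors. They were taken by symbol from a table of 19912 genes and comprise the synthesis enzymes RDH10, ALDH1A1, ALDH1A2 and ALDH1A3, the reductase and breakdown enzymes DHRS3, CYP26A1 and CYP26B1, and the receptors RARA, RARB and RARG. RNA was sequenced from endothelial cells that were derived from H1, a human embryonic stem cell line, and that were positive for a GATA2/eGFP reporter. The GFI1-KO group (2 libraries) lacked GFI1, a transcriptional repressor gene, by genotype label, and the WT group (2 libraries) was wild type; the reporter was common to both. The sources used here do not say how the knockout was made or from how many clones. The comparison asks how the retinoic acid genes of these endothelial cells differ between the genotypes.

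Retinol enters cells through the membrane receptor STRA6 and is oxidised to retinal, in mouse embryos chiefly by RDH10, and then irreversibly to retinoic acid by the ALDH1A enzymes. DHRS3 reduces retinal back to retinol, and the CYP26 enzymes hydroxylate retinoic acid and so remove it. Retinoic acid receptors pair with retinoid X receptors on direct repeats in DNA, and in mouse embryos retinoic acid signalling in hemogenic endothelium, the endothelium that yields blood cells, is needed for blood stem cell formation.

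Receptor genes carried most of the counts. In GFI1-KO replicates 1 and 2 the 10 genes summed to 21 and 335 counts, of which the 3 receptors gave 19 and 243. In WT replicates 1 and 2 they summed to 273 and 261 counts, of which the receptors gave 195 and 203. Of the 10 genes, 8 had at least 1 count, 2 had none in any library, and 3 (ALDH1A2, RARA and RARG) were abundant enough to be tested. None of these 3 passed the test (0 with edgeR at an adjusted p under 0.05, against 0.958% of the 11380 genes tested), nor did any with DESeq2 or with limma-voom. RARG alone of the 3 had an unadjusted p under 0.05 with edgeR, as 9.35% of all genes tested did, and also with limma-voom. With DESeq2, 1 of the 8 genes with counts had such a p, as did 401 of all 15579 genes with counts. Which of the 8 genes it was is not recorded. Of the 8 genes with counts, 3 had groups that did not overlap. These were RDH10 and ALDH1A1 with both GFI1-KO values below both WT values, and RARG with both above. The share over all genes tested was 41.2%, but RDH10 and ALDH1A1 were not tested, so the shares are not alike. At the pooled WT level GFI1-KO replicate 1 would give 0.653 counts of RDH10 and 0.49 of ALDH1A1, so that a 0 there says little. A filter on low counts decided which of the 10 genes were tested, so that the 3 tested genes do not stand for all of them.

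Depth set what could be seen. The shallowest library, GFI1-KO replicate 1, had 146584 counts, where the rest had 2239214 to 2417410. A count of 0 allows up to 19.9 CPM (counts scaled by a TMM-adjusted library total) in GFI1-KO replicate 1, and up to 1.34 CPM in GFI1-KO replicate 2, 1.34 CPM in WT replicate 1 and 1.26 CPM in WT replicate 2. These limits stand for 3 counts, while the exact 2-sided 95% interval of a count of 0, used for the gene values and drawn as bars, ends higher, at 24.4 CPM in GFI1-KO replicate 1, 1.64 CPM in GFI1-KO replicate 2, 1.65 CPM in WT replicate 1 and 1.55 CPM in WT replicate 2. The limits and intervals take in counting error alone, as no molecular identifiers are described. GFI1 was at 19.9 and 19.6 CPM in GFI1-KO and at 58.5 and 58.3 CPM in WT, and it fell in GFI1-KO (log2 fold change -1.57, SE 0.31, edgeR adjusted p = 0.0215). Whether the reads lie in the deleted stretch is not known, so GFI1 checks the labels by direction only. GATA2, the gene of the reporter, was at 139 and 124 CPM in GFI1-KO and at 293 and 252 CPM in WT, and it also fell (-1.09, SE 0.24, edgeR adjusted p = 0.0376). Both calls were lost with DESeq2, at adjusted p of 0.563 for GFI1 and 0.113 for GATA2, and when WT replicate 1 (0.137 and 0.446), WT replicate 2 (0.0960 and 0.0876) or GFI1-KO replicate 2 (0.271 and 0.131) was left out. The GATA2 call was also lost with upper-quartile scaling (0.0519), the newer dispersion (0.0676) and a required mean of 5 CPM (0.0673). Over all these fits the log2 fold change stayed between -1.60 and -1.54 for GFI1 and between -1.17 and -0.96 for GATA2. Endothelial marker genes, 10 of 10 counted in each library, summed to 7068 and 8706 CPM in GFI1-KO and to 5932 and 6199 CPM in WT. KDR alone gave 3703 and 4970 CPM of this in GFI1-KO and 2995 and 3285 CPM in WT. Of the 10 genes, 9 had a log2 fold change above 0, against 47.5% of all genes tested. EMCN was the 1 that passed (log2 fold change 2.38, SE 0.41, edgeR adjusted p = 0.00959), as 0.958% of all genes tested did. It was at 72.9 and 41.4 CPM in GFI1-KO and at 11.6 and 6.71 CPM in WT. PECAM1 was lower in GFI1-KO, at 344.5 and 324 CPM against 443 and 388 CPM in WT. The 12 blood marker genes summed to 0 and 12.5 CPM in GFI1-KO, with 0 and 4 of them counted, and to 38.9 and 60.0 CPM in WT, with 6 counted in each. The 4 blood genes tested, ITGA2B, KLF1, SPN and SPI1, had log2 fold changes of -2.98, -2.66, -1.62 and -0.85. With edgeR 0 of them passed, and each had 0 counts in GFI1-KO replicate 1. PTPRC, HBA1, HBA2, HBB, HBE1 and HBZ among the 12 had 0 counts in all libraries. Reads of HBA1 and HBA2, which are near-identical copies, and of HBE1, which shares 81.3% of its exon length with another gene on the same strand, may have been left out by the counting. The 6 pluripotency genes summed to 603 and 569 CPM in GFI1-KO and to 747 and 779 CPM in WT, with NANOG at 0 in all. LIN28A gave most of that sum, at 523 and 462 CPM in GFI1-KO and 603 and 635 CPM in WT. POU5F1 had 0 and 5 counts in GFI1-KO and 4 and 13 in WT, and SOX2 had 1 count in all. The sum is thus mainly a value of LIN28A. The 10 mesenchymal and mesothelial genes, markers of tissues that make retinoic acid in the embryo, summed to 1060 and 1253 CPM in GFI1-KO and to 1676 and 1054 CPM in WT, and so overlapped. Most of that sum came from COL1A1 (424 and 559 CPM in GFI1-KO, 700 and 564 CPM in WT) and COL3A1 (484 and 538 CPM, 802 and 332 CPM). WT1 and TCF21 had at most 4 counts in a library, and UPK3B had 0 in all. Whether these marker differences have a part in any result given here was not tested. In bulk RNA fewer cells of a type and less RNA per cell cannot be told apart.

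RARB and CYP26A1, the members best known as direct targets of retinoic acid, hold its classical response element at a start site, and both were near 0 in these cells. The element is a pair of half-sites spaced by 5 bases, and the half-sites searched were AGGTCA (the consensus), its close variant AGTTCA, the form GGGTCA known from other elements, or else GGTTCA, in any combination and on either strand. It was found in 0.0883% of 35116 RefSeq promoter windows (GRCh38.p14, 250 bases before to 50 after a start) and in 2 of the 9 members that have a window; RDH10 has none in the table. Since the half-sites searched include those already known from RARB and CYP26A1, finding the repeat in these members is a description and not a result. Both elements are shown here in the orientation in which the repeat reads, with the half-sites in capitals: RARB from chr3:25428204-25428232 on the plus strand, and CYP26A1 from chr10:93073797-93073825 on the minus strand.
RARB: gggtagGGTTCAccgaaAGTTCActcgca
CYP26A1: acaattAGTTCAcccaaAGTTCAtcttta
The second half-site is AGTTCA in both, and the spacers are ccgaa in RARB and cccaa in CYP26A1. The RARB repeat ended 37 bases before a RefSeq start at 25428263, and the CYP26A1 repeat lay 74 bases before a RefSeq start at 93073893. The whole 250 bases before that RARB start, chr3:25428013-25428262 on the plus strand, show the element close to their end, again with its half-sites in capitals.
RARB promoter: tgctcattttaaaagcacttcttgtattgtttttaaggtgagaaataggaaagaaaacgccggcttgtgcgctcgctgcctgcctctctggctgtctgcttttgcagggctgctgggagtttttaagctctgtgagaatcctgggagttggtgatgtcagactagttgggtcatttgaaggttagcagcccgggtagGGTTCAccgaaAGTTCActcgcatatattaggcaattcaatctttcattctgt
A match describes these letters and does not show that a receptor bound there. Of 29 genes with such a repeat in a window, 16 were in the count table and 6 were tested. With edgeR 0 of the 6 passed and 0 had an unadjusted p under 0.05, against 0.958% and 9.35% of all genes tested. Their median log2 fold change was 0.07, against -0.02 over all genes tested.

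RDH10 (ENSG00000121039, chromosome 8, 73294612 to 73325281, plus strand, GRCh38), the retinol dehydrogenase of the first step, was sparse. It had 0 and 4 counts in GFI1-KO (0 and 1.78 CPM) and 10 and 10 counts in WT (4.47 and 4.20 CPM). Both GFI1-KO values lay below both WT values, a pattern shown by 22.7% of all genes tested, but the 0 in GFI1-KO replicate 1 is not informative, since the pooled WT level would give 0.653 counts there. GFI1-KO over WT, the pooled ratio came to 0.386 (exact 95% counting interval 0.0958 to 1.15), and the gene was below the count limit for testing.

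ALDH1A1 (ENSG00000165092, chromosome 9, 72900662 to 73080442, minus strand), a retinaldehyde dehydrogenase that is also a familiar marker of stem and progenitor cells, was the member with counts in WT alone. It had 0 and 0 counts in GFI1-KO against 12 and 3 in WT. The WT levels were 5.36 and 1.26 CPM, so the WT libraries themselves lay far apart. The pooled WT level would give 0.490 counts in GFI1-KO replicate 1 and 7.29 in GFI1-KO replicate 2. The exact 95% counting interval of the pooled ratio of GFI1-KO to WT ran from 0 to 0.538, and 12 of the 15 WT counts behind it came from WT replicate 1. The gene was below the count limit for testing, and with no such limit its edgeR adjusted p was 0.195.

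ALDH1A2 (ENSG00000128918, chromosome 15, 57953424 to 58497866, minus strand), the main retinoic acid-producing enzyme of the early embryo, had the highest level per kilobase of exon among the 4 synthesis genes in GFI1-KO replicate 2 and in both WT libraries. In GFI1-KO replicate 1, with 2 counts of it and 0 of the other 3 genes, the depth allows no order. AQP9 on the other strand shares 4.1% of its exon length. It had 2 and 69 counts in GFI1-KO, which are 13.2 and 30.7 CPM, and 49 and 38 counts in WT, which are 21.9 and 15.9 CPM. The groups overlapped, with the shallow GFI1-KO library lowest and the deep GFI1-KO library highest. The log2 fold change was 0.56 (SE 0.38, edgeR adjusted p = 0.77), and it was -0.50 without GFI1-KO replicate 2 (adjusted p = 0.881), so that the direction rests on that library. Among the counts of the 3 ALDH1A genes, ALDH1A2 took 79.3% in GFI1-KO replicate 2 (exact 95% binomial interval 69.3 to 87.2), 72.1% in WT replicate 1 (59.9 to 82.3) and 79.2% in WT replicate 2 (65.0 to 89.5); GFI1-KO replicate 1 gave 2 of 2 counts.

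ALDH1A3 (ENSG00000184254, chromosome 15, 100877714 to 100916626, plus strand), the third retinaldehyde dehydrogenase, had 0 and 18 counts in GFI1-KO and 7 and 7 in WT. GFI1-KO replicate 2, at 8.01 CPM, lay above the WT values of 3.13 and 2.94 CPM, and GFI1-KO replicate 1 lay at 0, where the pooled WT level would give 0.457 counts. The pooled ratio was 2.48 (exact 95% counting interval 1.17 to 5.39), and it comes from GFI1-KO replicate 2 alone. An antisense gene, ALDH1A3-AS1, shares 27.5% of the exon length of ALDH1A3, and no source used here gives the strand setting of the counting.

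**Figure D1:**
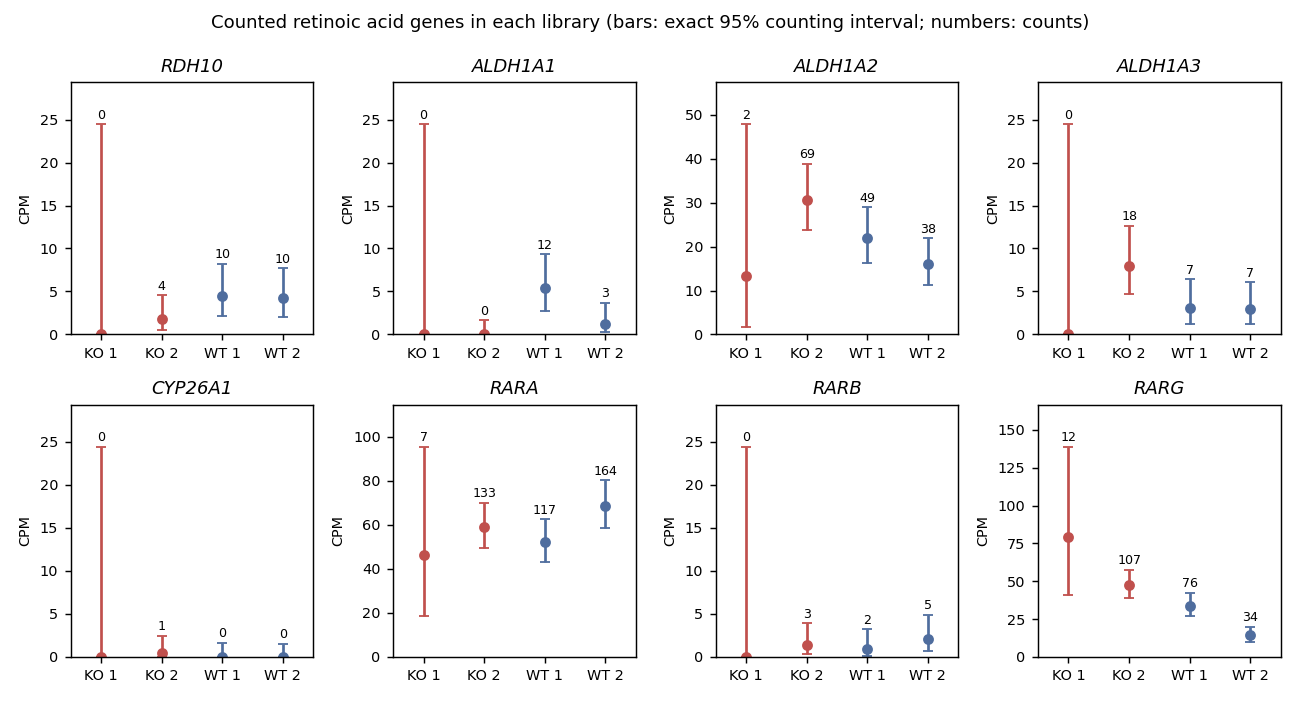
CPM on a linear axis from 0 for each of the 8 counted genes in GFI1-KO replicates 1 and 2 (KO 1, KO 2) and WT replicates 1 and 2 (WT 1, WT 2), with exact 95% counting intervals as bars and the count printed above each. RARG is the gene of the 8 for which both GFI1-KO points, at 79.5 and 47.6 CPM, lie above both WT points, at 33.9 and 14.3 CPM, and the bars of KO 1 are the widest in each panel.

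Of the 10 genes, those that take retinal or retinoic acid away were not detected beyond a single read. This does not hold for all retinal reductases, since RDH11, given below, was counted in every library. DHRS3 (ENSG00000162496, chromosome 1, 12567910 to 12617731, minus strand) and CYP26B1 (ENSG00000003137, chromosome 2, 72129238 to 72148038, minus strand) had 0 counts in all 4 libraries. CYP26A1 (ENSG00000095596, chromosome 10, 93073475 to 93077890, plus strand) had 0 and 1 counts in GFI1-KO and 0 and 0 in WT. CYP26C1, the third enzyme of the family and not one of the 10 genes, also had 0 counts in all 4. The 1 count of CYP26A1 allows up to 2.48 CPM in GFI1-KO replicate 2 (exact 95% interval), and each count of 0 allows the levels given above. No difference between the genotypes could be measured for these genes at this depth. A transcript on the same strand, ENSG00000285846, shares 25.2% of the exon length of CYP26A1.

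RARG (ENSG00000172819, chromosome 12, 53210567 to 53232980, minus strand), the gamma receptor gene, gave the largest difference between the genotypes among the 3 genes tested, and it did not pass over all genes. It had 12 and 107 counts in GFI1-KO, or 79.5 and 47.6 CPM, and 76 and 34 counts in WT, or 33.9 and 14.3 CPM. Both GFI1-KO libraries lay above both WT libraries, as they did for 18.6% of all genes tested. The mean was 63.6 ± 22.5 CPM in GFI1-KO and 24.1 ± 13.9 CPM in WT (SD, n = 2 each), and the log2 fold change came to 1.17 (SE 0.40, unadjusted p = 0.00881, edgeR adjusted p = 0.236). The WT libraries differed by more than counting error, with intervals of 26.7 to 42.5 CPM in replicate 1 and 9.88 to 19.9 CPM in replicate 2, and GFI1-KO replicate 2 overlapped WT replicate 1, at 39.0 to 57.6 CPM. Single libraries decided the call. Leaving out WT replicate 2 brought the log2 fold change to 0.72 (adjusted p = 1.0), and leaving out WT replicate 1 brought it to 1.97, which passed (0.0281). Leaving out GFI1-KO replicate 1 gave 0.99 (0.0508), and leaving out GFI1-KO replicate 2 gave 1.74, which also passed (0.0445). With no filter on low counts the edgeR adjusted p was 0.0347, and with DESeq2 it was 1.0.

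RARA (ENSG00000131759, chromosome 17, 40309192 to 40357643, plus strand), the alpha receptor gene, differed between the genotypes by less than between libraries of one genotype. It had 7 and 133 counts in GFI1-KO (46.4 and 59.2 CPM) and 117 and 164 in WT (52.2 and 68.8 CPM), and the groups overlapped. The log2 fold change was -0.09 (SE 0.27, edgeR adjusted p = 0.979) and turned to 0.11 without WT replicate 2. The pooled ratio was 0.961, with a counting interval of 0.779 to 1.18 that does not include the spread between libraries. RARA-AS1, an antisense gene, shares 11.8% of its exon length.

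RARB (ENSG00000077092, chromosome 3, 25174332 to 25597932, plus strand), the beta receptor gene, had 0 and 3 counts in GFI1-KO and 2 and 5 in WT. The element shown above precedes a start at 25428263, inside the span of the gene, and counts per gene do not say which start was used. These are 0 and 1.34 CPM in GFI1-KO and 0.893 and 2.10 CPM in WT, with overlapping groups. The pooled ratio of 0.826 had an interval of 0.138 to 3.62, wide enough to hold a large difference in either direction.

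Set per kilobase of annotated exon, so that genes can be compared, RARA and RARG lay above RARB in each library. RARG was at 15.5 and 9.29 CPM per kb in GFI1-KO and at 6.62 and 2.78 CPM per kb in WT. RARA was at 9.80 and 12.5 CPM per kb in GFI1-KO and at 11.0 and 14.6 CPM per kb in WT. RARA thus lay above RARG in both WT libraries and in GFI1-KO replicate 2, and below it in GFI1-KO replicate 1. There the order rests on 7 RARA and 12 RARG counts and is not settled. The exact 95% binomial interval of the RARA share of receptor counts in that library, 16.3 to 61.6%, overlaps that of RARG. Of the counts on the 3 receptor genes, RARG took 63.2% (exact 95% binomial interval 38.4 to 83.7) in GFI1-KO replicate 1 and 44.0% (37.7 to 50.5) in GFI1-KO replicate 2, and 39.0% (32.1 to 46.2) in WT replicate 1 and 16.7% (11.9 to 22.6) in WT replicate 2. The interval of GFI1-KO replicate 2 overlaps that of WT replicate 1, and WT replicate 2 stands apart from both.

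Ordered by mean level per kilobase in GFI1-KO, RARG came first at 12.4 ± 4.40 CPM per kb and RARA next at 11.2 ± 1.92 (SD, n = 2). ALDH1A2 followed at 2.55 ± 1.43 and ALDH1A3 at 0.694 ± 0.982, and RARB, RDH10 and CYP26A1 lay at 0.181 ± 0.255, 0.167 ± 0.237 and 0.0749 ± 0.106. In that order RARG and RARA differed by less than the larger of their SDs, as did each neighbour from ALDH1A3 downward, and ALDH1A1 was at 0. These means give the shallow GFI1-KO replicate 1 the same weight as GFI1-KO replicate 2. In GFI1-KO replicate 2 alone RARA lay above RARG, at 12.5 against 9.29 CPM per kb. The means of ALDH1A3, RARB, RDH10 and CYP26A1 each include a count of 0 in GFI1-KO replicate 1.
In WT, RARA came first at 12.8 ± 2.48 CPM per kb, then RARG at 4.70 ± 2.71 and ALDH1A2 at 2.19 ± 0.487 (SD, n = 2). ALDH1A1 lay at 1.16 ± 1.02, RDH10 at 0.814 ± 0.0358, ALDH1A3 at 0.525 ± 0.0231 and RARB at 0.405 ± 0.231. RARG and ALDH1A2, ALDH1A1 and RDH10, and ALDH1A3 and RARB differed by less than the larger of their SDs. Against all genes tested, the mean level of RARA stood above that of 63.9% in GFI1-KO and 68.0% in WT, and RARG above 67.3% in GFI1-KO and 35.5% in WT. ALDH1A2 stood above 20.2% in GFI1-KO and 16.7% in WT. The GFI1-KO shares rest on means that weight the shallow and the deep library equally.

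**Figure D2:**
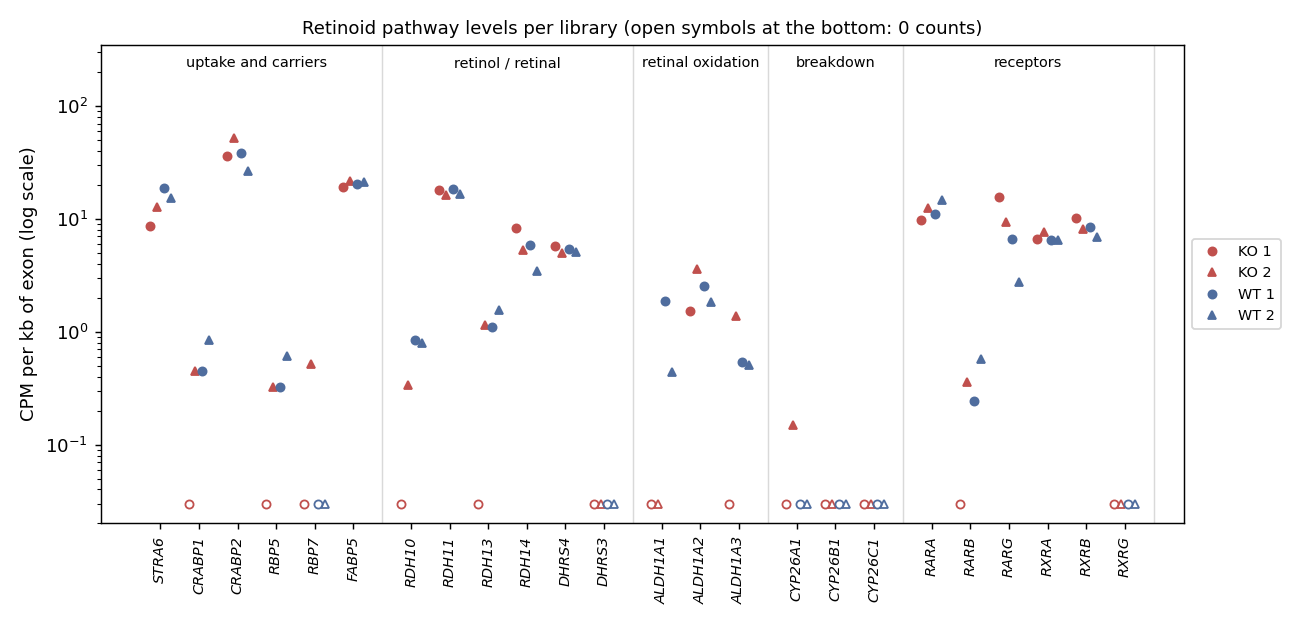
CPM per kb of exon on a log axis for genes of retinoid uptake, retinol and retinal conversion, retinal oxidation, breakdown and reception, with GFI1-KO (KO 1, KO 2) left of WT (WT 1, WT 2) for each gene; open symbols at the foot stand for 0 counts. STRA6, CRABP2, FABP5, RDH11, RDH14, DHRS4, ALDH1A2, RARA, RARG, RXRA and RXRB lie above 1 CPM per kb in each library. The CYP26 genes, DHRS3 and RXRG lie at the foot except for CYP26A1 in KO 2, at 0.150.

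Genes whose values over the 4 libraries were closest to those of RARG were AQP1, KLHL13 and FAM111A, with root mean square distances of 0.13, 0.14 and 0.14 in centred log2 CPM among 10964 genes compared. AQP1, a water channel gene, was at 13.2 and 7.12 CPM in GFI1-KO and at 6.25 and 2.10 CPM in WT. Its GFI1-KO replicate 1 value rests on 2 counts, as does that of KLHL13, and that of FAM111A on 3. Over 4 libraries such likeness is a description.

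Among uptake and transport genes, STRA6, CRABP2 and FABP5 were the 3 tested, and none passed. Of 9 such genes listed 7 had counts, and the 3 had a median log2 fold change of 0.03. STRA6, the retinol receptor gene, had 10 and 222 counts in GFI1-KO, or 66.2 and 98.8 CPM, and 325 and 281 counts in WT, or 145 and 118 CPM. Both GFI1-KO values of STRA6 lay below both WT values, as they did for 22.7% of all genes tested. Its log2 fold change came to -0.53 (SE 0.26, edgeR adjusted p = 0.564) and ran from -0.98 to -0.40 when 1 library was left out. CCDC33 on the other strand shares 7.0% of the exon length of STRA6. CRABP2, which carries retinoic acid to its receptors in the nucleus, was at 39.8 and 57.0 CPM in GFI1-KO and at 42.0 and 29.4 CPM in WT (log2 fold change 0.59, SE 0.30, adjusted p = 0.583), with overlapping groups. Its value was 0.17 when GFI1-KO replicate 2 was left out, 0.34 without WT replicate 2 and 0.85 without WT replicate 1. FABP5, which binds fatty acids and retinoic acid, gave 0.03 (SE 0.28, adjusted p = 0.998), and -0.01 with DESeq2. RBP4 and TTR, the plasma carriers of retinol, had 0 counts and 1 count in all.

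Other retinoid enzymes were counted in part. Of 26 such genes, 12 had counts, 14 had none, and 8 were tested, with a median log2 fold change of -0.06 and 0 passing. LRAT and RPE65, the retinol esterifying enzyme and the isomerase of the visual cycle, had 0 counts in all 4 libraries. RDH11, a broadly expressed retinal reductase, had 15 and 202 counts in GFI1-KO and 229 and 217 in WT. ADH5, an alcohol dehydrogenase known mainly for formaldehyde removal, had the smallest p of the list, with 39.8 and 135 CPM in GFI1-KO and 177 and 165 CPM in WT (log2 fold change -0.63, SE 0.30, edgeR adjusted p = 0.532). The GFI1-KO libraries of ADH5 lay far apart: leaving out replicate 2 gave -2.10 (adjusted p = 0.0037), and leaving out replicate 1 gave -0.34 (0.763). RETSAT, CYP1B1 and RDH13 had log2 fold changes of -0.54, 0.58 and -0.38, with adjusted p from 0.801 to 0.936, on 1, 1 and 0 counts in GFI1-KO replicate 1. When 1 library was left out RETSAT ran from -2.01 to -0.40 and CYP1B1 from 0.27 to 1.00, and RDH13 has no usable value without GFI1-KO replicate 2, since its remaining GFI1-KO count is 0.

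Dimer partners and cofactors of the receptors were counted in every library, save RXRG. RXRA was at 72.9 and 85.5 CPM in GFI1-KO and at 71.4 and 72.6 CPM in WT, and its log2 fold change came to 0.20 (SE 0.25, edgeR adjusted p = 0.92). RXRB gave 0.13 (SE 0.33, adjusted p = 0.973), and RXRG had 0 counts. All 12 genes listed as cofactors were tested and 0 passed, with a median log2 fold change of 0.15 and a range of -0.12 to 0.44. The list also holds PPARD, itself a nuclear receptor gene and not a cofactor, at -0.10. NRIP1, a corepressor of ligand-bound nuclear receptors that retinoic acid itself induces, had the upper end of that range (adjusted p = 0.77), followed by the coactivator genes NCOA3 at 0.33, CREBBP at 0.32 and NCOA1 at 0.25 (adjusted p from 0.833 to 0.898). CREBBP turned to -0.03 when WT replicate 1 was left out, and NRIP1 ran from 0.20 to 0.92 over the fits with 1 library left out. Of all 50 genes around the pathway, 25 were tested with edgeR and limma-voom, and DESeq2 gave 21 an adjusted p. With each tool 0 passed, and 1 had an unadjusted p under 0.05 with edgeR, 0 with DESeq2 and 1 with limma-voom. Over all 11380 genes tested, 9.35% had such a p with edgeR and 1144 genes had it with limma-voom. DESeq2 gave it to 401 of all 15579 genes with counts, and 33 of the 50 genes here had counts. Of the 25 log2 fold changes, 16 were above 0, which is 64% against 47.5% over all genes tested.

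Genes known to respond to retinoic acid likewise gave no call. Of 29 listed, 20 had counts and 14 were tested with edgeR and limma-voom, and DESeq2 gave 13 an adjusted p. With each tool 0 passed, and 2 had an unadjusted p under 0.05 with edgeR, 1 with DESeq2 and 3 with limma-voom. Such a p was found for 9.35% of all 11380 genes tested with edgeR and for 1144 of them with limma-voom. With DESeq2 it was found for 401 of all 15579 genes with counts. The median log2 fold change was 0.23, against -0.02 over all genes tested, with 9 of 14 above 0. TGM2, the tissue transglutaminase gene, was at 391 and 159 CPM in GFI1-KO and at 133 and 82.7 CPM in WT, so that the groups did not overlap (log2 fold change 1.14, SE 0.34, edgeR adjusted p = 0.167). Such a pattern, with both GFI1-KO libraries above both WT libraries, was shown by 18.6% of all genes tested. Leaving out GFI1-KO replicate 1 brought TGM2 to 0.56 (adjusted p = 0.321), whereas it passed when GFI1-KO replicate 2 (1.87, adjusted p = 2.28e-07) or WT replicate 1 (1.60, 0.0131) was left out, with no filter on low counts (0.00326) and with the replicate number as a block (3.58e-05). MEIS1, a homeobox gene of blood progenitors, was at 185 and 118 CPM in GFI1-KO and at 76.8 and 52.5 CPM in WT (1.08, SE 0.29, edgeR adjusted p = 0.0935). It had the same pattern of no overlap, which 18.6% of all genes tested showed. MEIS1 passed when GFI1-KO replicate 1 (0.86, adjusted p = 0.0365) or GFI1-KO replicate 2 (1.53, 0.00435) was left out, with no filter (0.0103) and with the block (0.000396). MEIS1 also answers to other regulators and is no specific reporter of retinoic acid. CDX2, a homeobox gene of the posterior embryo, had the highest log2 fold change, 1.47 (SE 0.73, adjusted p = 0.570), on 0 and 8.90 CPM in GFI1-KO against 4.47 and 1.26 CPM in WT, which overlapped. HOXB2, HOXB3, HOXB4 and HOXB5 were counted in every library with log2 fold changes of -0.31, 0.18, 0.06 and -0.17, whereas HOXA2, HOXA4 and HOXD4 had 0 counts in all 4. AC009336.2, which is in the count table, shares 80.5% of the exon length of HOXD4 on the same strand. Reads of HOXD4 may thus have been left out by the counting. ENSG00000273433 shares 31.0% of the exon length of HOXA4 but is not in the count table, and whether the counting included it is not known.

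**Figure D3:**
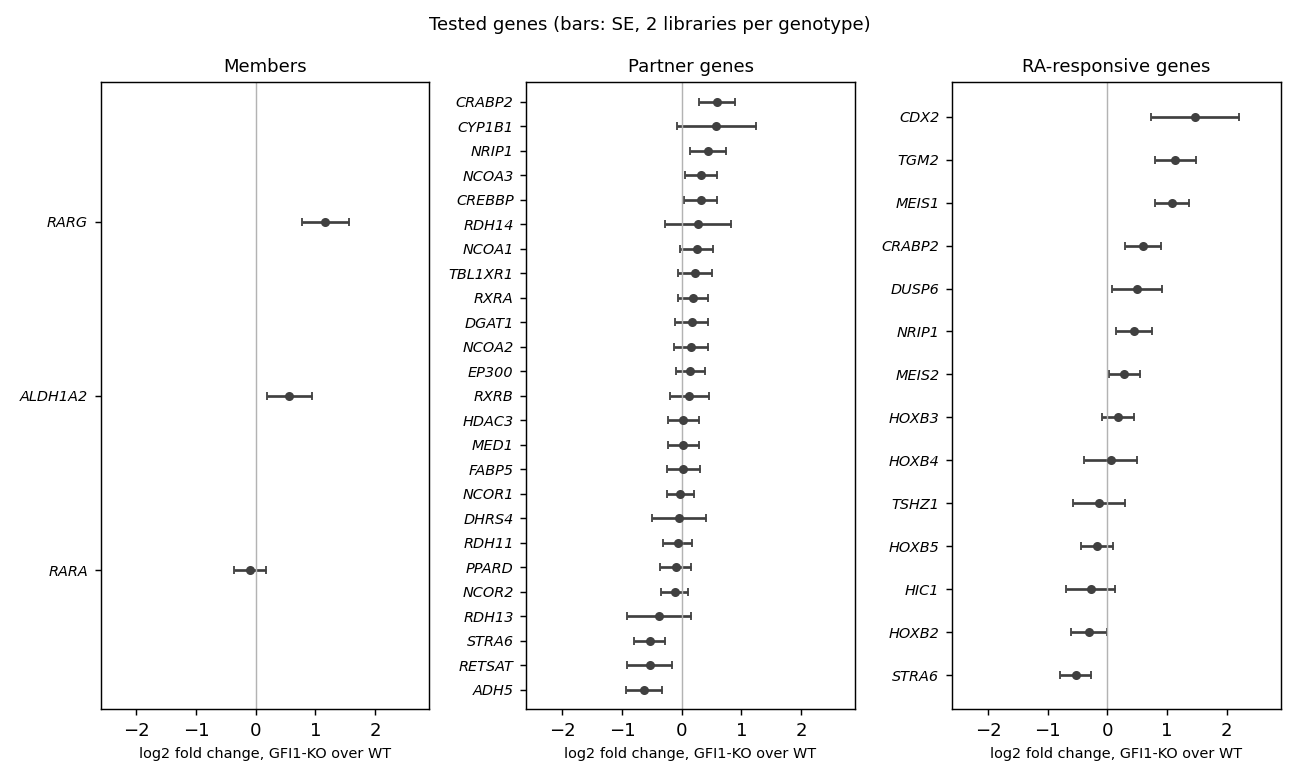
Log2 fold changes of GFI1-KO over WT (points) with their SE (bars) for the 3 tested members, the 25 tested partner genes and the 14 tested genes that respond to retinoic acid, ordered by value in each panel; genes in more than 1 list appear in each. RARG, at 1.17, is the highest of the members, and TGM2, MEIS1 and CDX2 head the responsive genes, with 0 of the values shown past an adjusted p of 0.05.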

How the data were processed

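Whole-number read counts per gene of 4 libraries were used as the authors deposited them. The submitters' processing notes name the builds hg38 and GRCh38 and, without role or order, DESeq 1.18.1, HTSeq 0.6.0, HISAT2 2.0.4 and SAMtools 1.3.1; annotation, filters and strand setting: not given in the sources used here. Of 19912 gene identifiers, 19902 matched GENCODE release 29, which gave coordinates and exon lengths, and symbols came from a gene name table (19784 matches) or else GENCODE. Promoter sequences are RefSeq's (GRCh38.p14).

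Groups and replicate numbers came from sample titles. Nothing says that replicates were separate cultures, and p-values thus reflect the spread of these libraries alone, possibly technical. Counts were tested with edgeR 4.0.16 in R 4.3.3 (TMM, filterByExpr with minimum count 10 and minimum total 15, glmQLFit in its default earlier form, glmQLFTest) and Benjamini-Hochberg adjustment over 11380 genes; a gene passed at an adjusted p under 0.05. Fold changes set GFI1-KO over WT on the log2 scale, and SE is the unshrunken log2 fold change over the square root of F. Alternatives used DESeq2 1.42.0, limma-voom (limma 3.58.1), other scalings, filters and dispersion, leave-one-out fits and a replicate block. The scripts were tested on simulated data.

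The 10 genes and all lists were chosen with earlier results of these data known, and 1 gene was taken out of the lists since it is not reported here. Named were all 10, GFI1 and GATA2, up to 4 genes per list with the smallest adjusted p, plus the 3 genes most like the member with the smallest p among those with a mean of at least 5 CPM; ALDH1A3-AS1 and other overlapping genes, RDH11, LRAT, RPE65, RBP4, TTR, CYP26C1, RXRG, HOX genes and markers at 0 were named after their values were seen.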

Additional observations from a re-analysis of the deposited data

How the results depend on the processing

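The number of genes that passed was 58 with upper-quartile scaling, 31 with DESeq2, 58 with the newer dispersion, 305 with no filter on low counts, 50 where a mean of 5 CPM or more was required and 62 to 373 when 1 library was left out, against 109 in the test as reported. Of the 10 retinoic acid genes, 1 (RARG) passed with no filter on low counts, and 0 to 1 passed when 1 library was left out. Of the partner genes 0 to 1 passed when 1 library was left out; of the responsive genes 2 passed with no filter and 0 to 2 without 1 library. Log2 fold changes when 1 library was left out ran from -0.50 to 0.75 for ALDH1A2, from -0.38 to 0.11 for RARA, from -0.11 to 0.055 for FABP5 and from -0.025 to 0.77 for CREBBP, and FABP5 was at -0.012 with DESeq2. The cause was not tested. Where 1 library remained in a group, it was assumed to vary like the other group. With the replicate number as a block, 327 genes passed, 1 of the 10 (RARG, log2 fold change 1.54, adjusted p = 0.00159), 0 partner genes and 2 responsive genes (TGM2 and MEIS1); the labels tie the numbers to nothing shared, and same-numbered libraries deviated with a correlation of 0.112 over 11380 genes, so the numbers were not used to pair. Depth limits RDH10, ALDH1A1, ALDH1A3, RARB and the CYP26 genes, all of which lay below the count filter of the test as reported.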
